A study of Homo sapiens with 4 samples.

Results

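Human genes named ZNF followed by a number were examined, most of them C2H2 zinc finger genes. Within them the focus lay on the 313 genes whose level in untreated HCC1937 cells was below 1 FPKM (a level per length of transcript and per depth of library). No finger match was required, so 44 pseudogenes and some genes without a C2H2 match are among them. These low genes are 313 of the 558 ZNF genes with a symbol that occurs once, among 59533 genes with such a symbol in a table of 60612 lines. They were chosen by the untreated HCC1937 value, so their low level there, and any difference measured from that library, is a description and not a finding. The other 245 ZNF genes, at 1 FPKM or more in the same library, are set beside them throughout.

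The study sequenced RNA from 4 libraries, 1 in each of 4 groups, so no group had a replicate, no test between groups was possible and no p-value is given. HCC1937 is a breast carcinoma line with mutant BRCA1 and THP-1 is a monocytic leukaemia line. Both are labelled p53-/- and infected to express the p53 point mutant p53-R282W, and the untreated cells carry it as well as the treated ones. DAC (decitabine) is a nucleoside analogue that enters DNA in dividing cells, traps DNA methyltransferases and lowers DNA methylation. HCC1937 cells received 0.3 µM DAC for 5 days and THP-1 cells 5 µM for 2 days, so dose and time differ between the lines, and in neither line was a library without p53-R282W used. The labels do not say whether either line was a single clone.

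Most members of this family bind DNA through arrays of C2H2 fingers, and many carry a KRAB domain. KRAB recruits the corepressor TRIM28, which brings the histone methyltransferase SETDB1 and heterochromatin proteins, and the best known targets are retroelements and imprinted regions. The genes multiplied by tandem duplication, with large clusters on chromosome 19, and CpG methylation of their promoters is recurrent in carcinomas.

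The promoter windows of 4 of the genes below 1 FPKM are printed because these genes stood at 0 to 0.10 FPKM in untreated HCC1937 and above 1 FPKM with DAC. Each is the stretch of 250 bases before the most upstream RefSeq start, on GRCh38.p14, 5′ to 3′ on the strand of the gene, with every CpG in capitals. The ZNF560 window lies at chr19:9498617-9498866 on the minus strand and holds 14 CpG, the ZNF534 window at chr19:52428898-52429147 on the plus strand and holds 14. The ZNF154 window lies at chr19:57709205-57709454 on the minus strand and holds 11, and the ZNF582 window at chr19:56393535-56393784 on the minus strand and holds 23. ZNF154 and ZNF582 are known as genes whose promoters are methylated in several carcinomas. No methylation was measured in the data used here.
ZNF560: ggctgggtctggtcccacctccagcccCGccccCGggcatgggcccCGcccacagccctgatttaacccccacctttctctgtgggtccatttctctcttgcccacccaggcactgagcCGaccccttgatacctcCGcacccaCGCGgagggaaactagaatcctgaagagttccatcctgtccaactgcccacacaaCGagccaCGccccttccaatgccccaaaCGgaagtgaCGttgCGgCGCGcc
ZNF534: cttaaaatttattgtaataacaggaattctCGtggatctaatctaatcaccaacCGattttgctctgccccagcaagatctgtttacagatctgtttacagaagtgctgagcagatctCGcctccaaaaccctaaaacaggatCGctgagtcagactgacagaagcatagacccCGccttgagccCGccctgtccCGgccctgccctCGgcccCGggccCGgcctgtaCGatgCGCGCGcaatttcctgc
ZNF154: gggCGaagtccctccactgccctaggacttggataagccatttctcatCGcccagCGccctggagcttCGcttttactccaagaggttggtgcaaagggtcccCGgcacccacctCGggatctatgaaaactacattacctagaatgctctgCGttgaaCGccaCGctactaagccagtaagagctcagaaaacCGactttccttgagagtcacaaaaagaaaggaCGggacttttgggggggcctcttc
ZNF582: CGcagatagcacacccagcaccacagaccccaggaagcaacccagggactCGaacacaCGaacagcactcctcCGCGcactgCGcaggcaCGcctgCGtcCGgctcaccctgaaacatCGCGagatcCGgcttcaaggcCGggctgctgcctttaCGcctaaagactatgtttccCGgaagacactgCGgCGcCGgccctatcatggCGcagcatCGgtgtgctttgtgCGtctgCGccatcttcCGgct

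The 4 libraries were of similar depth. Estimated counted reads were 18.73 M in DAC-treated and 18.70 M in untreated HCC1937, and 19.66 M in DAC-treated and 19.45 M in untreated THP-1. For a transcript of 2 kb, 37.4 to 39.3 reads give 1 FPKM, and longer transcripts need more. The median exon length of the low genes is 4769 bp, so the reads behind a value below 1 FPKM vary widely, as in ZNF507 with 206 reads at 0.98 FPKM and ZNF154 with 5 reads at 0.05 FPKM, both untreated. The breast epithelial and basal markers fitted the label of HCC1937, with 12 of 12 at 1 FPKM or more untreated, against 2 of 12 in untreated THP-1. The myeloid markers stood at 1 FPKM or more in 12 of 12 in untreated THP-1 and in 1 of 12 in untreated HCC1937. Summed markers of other cell types were higher in DAC-treated HCC1937, at 2.80 against 0.30 FPKM for 5 lymphoid genes (MS4A1 at 0 in both, none of 5 at 1 FPKM untreated) and 15.97 against 5.88 FPKM for 4 fibroblast and endothelial genes, and their part in the ZNF results was not tested. In bulk RNA, fewer cells of a type and less RNA per cell cannot be told apart.

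In HCC1937, DAC-treated cells had a higher value than untreated cells in 250 of the 313 genes, a lower one in 15 and an equal one in 48. The median level was 0.65 FPKM with DAC and 0.27 FPKM untreated, and the summed level 262.16 FPKM with DAC and 103.10 FPKM untreated. The median difference of log2(FPKM + 1) was 0.30, with the middle 50% of genes between 0.04 and 0.58. Over the 245 ZNF genes at 1 FPKM or more it was 0.29, with 199 higher and 46 lower, and over all 14058 genes at 1 FPKM or more in at least 1 HCC1937 library it was 0.19. With upper-quartile scaling of the treated library, which puts that median of all genes at -0.06, 235 low genes were higher and 34 lower (median 0.18), and 134 ZNF genes at 1 FPKM or more were higher and 111 lower (median 0.04). Because the untreated value selected the low genes, nothing is read from the lean of their differences.

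With DAC, 105 of the 313 genes stood at 1 FPKM or more. That is 33.5% (72 genes with upper-quartile scaling), beside 4.32% of the 47311 genes other than ZNF that were below 1 FPKM untreated. Many of those other genes were at 0, so protein-coding genes above 0 and below 1 FPKM untreated were also compared. Among these, 100 of 226 ZNF genes (44.2%) reached 1 FPKM with DAC, beside 23.0% of 4464 other genes. The 226 started nearer 1 FPKM, at a median of 0.415 FPKM untreated against 0.17 FPKM for the 4464. Nothing is read from these shares of genes that reached 1 FPKM. A difference of at least 2-fold on the log2(FPKM + 1) scale was met by 17 of the 313 genes (5.43%), all higher with DAC, beside 10.3% of all 14058 genes kept, 2.06% of the other genes below 1 FPKM untreated, 5.75% of those above 0 and 8.83% of the protein-coding ones above 0. The share of the low genes lay between these backgrounds, and nothing is read from it. On that scale no gene below 1 FPKM untreated can be 2-fold lower, so the 0 lower calls follow from the rule. The ZNF genes at 1 FPKM or more gave 13 higher calls and 1 lower call. The number of calls rests on the pseudocount, with 52 low genes at least 2-fold higher at 0.5 and 128 at 0.1. Among the 105 low genes at 1 FPKM or more with DAC the 17 calls are 16.2%, but these genes passed through the library where they are high, and nothing is read from that share either.

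**Figure D1:**
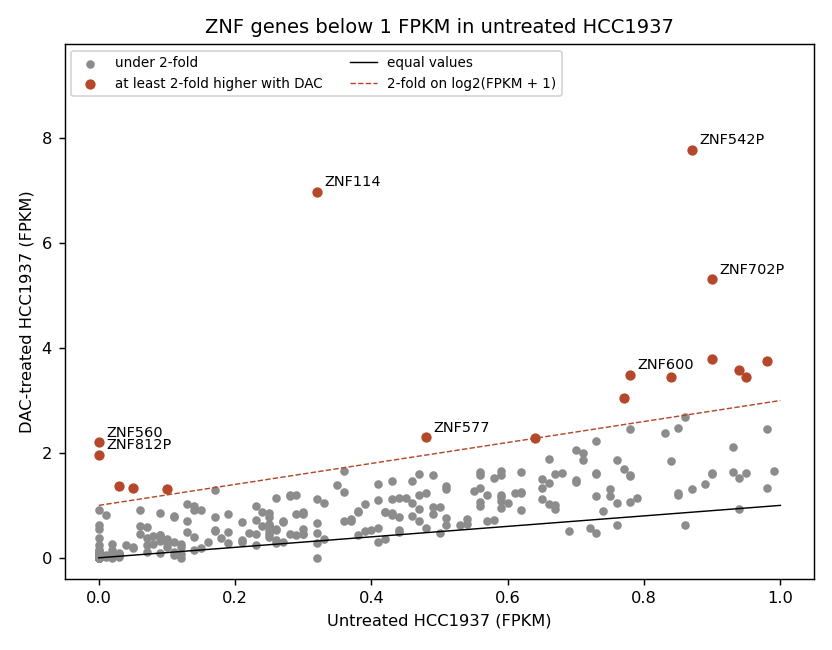
Level of each of the 313 ZNF genes in DAC-treated HCC1937 (vertical axis, FPKM) against untreated HCC1937 (horizontal axis, FPKM), 1 library each. Red points are the 17 genes at least 2-fold higher on log2(FPKM + 1), the solid line marks equal values and the dashed line 2-fold; 250 genes lie above the solid line.

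The largest difference was that of ZNF114 (chromosome 19, 48270102 to 48287608), which measured 6.98 FPKM in DAC-treated and 0.32 FPKM in untreated HCC1937, a difference of 2.60 on the log2(FPKM + 1) scale. Estimated from 391 reads with DAC and 18 untreated, the ratio was 21.8 with an exact (Clopper-Pearson) 95% interval of 13.5 to 37.0, which covers counting error only. In THP-1 the same gene stood at 2.36 FPKM with DAC and 2.24 FPKM untreated. The pseudogenes ZNF542P and ZNF702P followed. ZNF542P had 7.78 FPKM with DAC and 0.87 FPKM untreated (difference 2.23), and ZNF702P 5.31 FPKM with DAC and 0.90 FPKM untreated (difference 1.73). In THP-1 both pseudogenes were at 0.05 FPKM or less in each library, ZNF542P at 0.01 and 0 FPKM and ZNF702P at 0 and 0.05 FPKM with DAC and untreated.

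ZNF560 and ZNF812P had no read in untreated HCC1937 and were the only 2 of the 71 genes at 0 there to reach 1 FPKM. ZNF560, a KRAB gene with 13 fingers by pattern match, measured 2.21 FPKM with DAC, 117 estimated reads, which is at least 38.9-fold higher when the untreated library is set at a floor of 3 reads. The exact 95% interval of the ratio, which allows more than 3 reads, has a lower limit of 31.2. ZNF812P, a transcribed pseudogene, measured 1.97 FPKM with DAC, 86 reads, at least 28.6-fold higher on the same floor, with a lower limit of 22.8 from the exact interval. ZNF560 was at 0 in both THP-1 libraries, and no THP-1 value was given for ZNF812P. Of the other genes at 0 untreated, 25 had a value above 0 but below 1 FPKM with DAC, the highest being ZNF725P at 0.92 FPKM (named after its value was seen), and 44 were at 0 in both libraries.

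ZNF534, ZNF154 and ZNF582, whose promoters are printed above, were nearly silent untreated. ZNF534 measured 1.37 FPKM with DAC and 0.03 FPKM untreated, from 84 and 2 reads, a ratio of 45.7 with a counting interval of 11.3 to 352. ZNF154 measured 1.34 FPKM with DAC and 0.05 FPKM untreated (ratio 26.8, interval 12 to 89.3). ZNF582 measured 1.32 FPKM with DAC and 0.10 FPKM untreated (ratio 13.2, interval 6.08 to 38.7). These 3 differences are 1.20, 1.16 and 1.08 on the log2(FPKM + 1) scale, which understates the change of low genes. In THP-1 all 3 stayed under 0.2 FPKM in both libraries: ZNF534 had 0.17 FPKM with DAC and 0.07 FPKM untreated, ZNF154 0.18 and 0.07 FPKM, and ZNF582 0.09 and 0.13 FPKM in the same order.

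The remaining 8 KRAB genes among the 17 started nearer 1 FPKM. ZNF600, ZNF559 and ZNF611 measured 3.49, 3.79 and 3.45 FPKM with DAC, and 0.78, 0.90 and 0.84 FPKM untreated. ZNF649 had 3.75 FPKM with DAC and 0.98 FPKM untreated, ZNF701 3.58 and 0.94 FPKM, and ZNF433 3.45 and 0.95 FPKM. ZNF577 had 2.30 FPKM with DAC and 0.48 FPKM untreated, and ZNF813, the smallest of the 17 differences at 1.00, had 2.29 and 0.64 FPKM. ZNF280C on the X chromosome, a gene without a KRAB match that is known to limit the resection of broken DNA ends, was the only one of the 17 not on chromosome 19, with 3.05 FPKM with DAC and 0.77 FPKM untreated. The counting interval of the ratio lay above 1 for all 17, which were chosen for a large difference in the same libraries. It also lay above 1 for 198 of the 266 low genes with reads and for 156 of the 245 ZNF genes at 1 FPKM or more. Nothing is read from it.

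**Figure D2:**
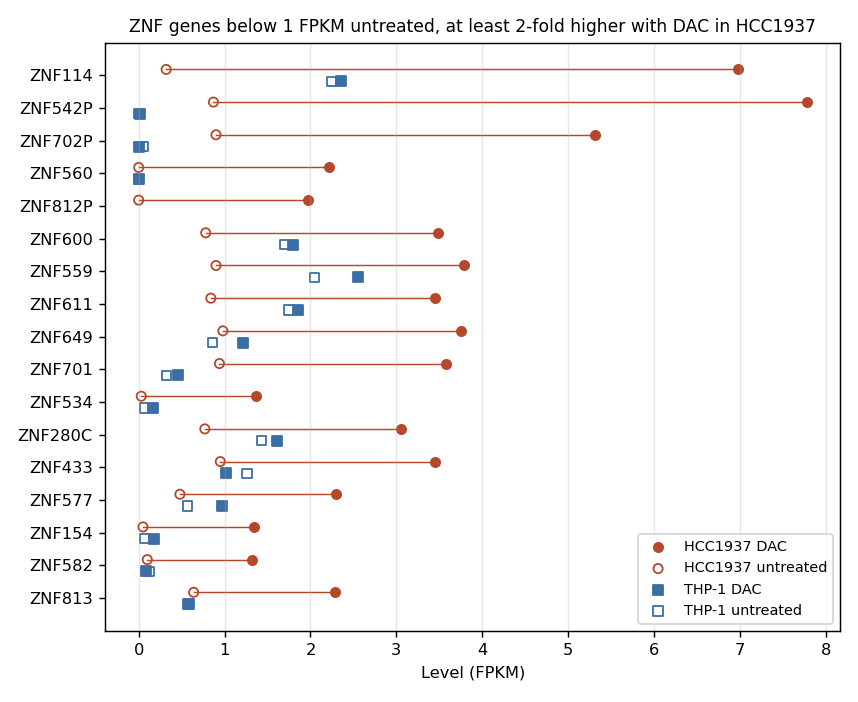
Levels (FPKM) of the 17 ZNF genes at least 2-fold higher with DAC in HCC1937, in order of the difference, as single values in the 4 libraries (circles HCC1937, squares THP-1, filled DAC, open untreated). Each HCC1937 pair is joined by a line, the THP-1 pairs lie within 0.50 FPKM of each other, and ZNF812P has no THP-1 value.

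A gene below 1 FPKM untreated can drop by less than 1 on the log2(FPKM + 1) scale. The 5 largest drops were those of ZNF29P, ZNF169, ZNF311, ZNF602P and ZNF684. ZNF29P, an exon of 168 bp, had 0 FPKM with DAC and 0.32 FPKM untreated, which is 1 read, and ZNF602P 0 FPKM with DAC and 0.12 FPKM untreated, which is 2 reads. ZNF169 had 0.48 FPKM with DAC and 0.73 FPKM untreated (ratio 0.66, interval 0.45 to 0.97), from 48 and 72 reads. ZNF311 had 0.62 FPKM with DAC and 0.86 FPKM untreated, and ZNF684 0.52 and 0.69 FPKM, with intervals that include 1.

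Around the threshold, the genes just inside were ZNF438 at 0.99 FPKM and ZNF320, ZNF507 and ZNF649 at 0.98 FPKM untreated. Their DAC values were 1.65, 2.45, 1.33 and 3.75 FPKM. Just outside were ZNF484, ZNF532, ZNF606 and ZNF8 at 1 FPKM untreated, with 1.61, 2.31, 2.45 and 0.97 FPKM with DAC. The genes on the 2 sides of 1 FPKM thus had overlapping DAC values. Of the exon bases of ZNF320, 78.5% are shared with other genes, most of all with ZNF468 on the same strand. Further up, the largest rises among ZNF genes at 1 FPKM or more were ZNF761 (6.10 FPKM with DAC, 1.76 FPKM untreated), ZNF28 (7.02 and 2.13 FPKM), ZNF468 (11.15 and 3.84 FPKM) and ZNF350 (4.29 and 1.25 FPKM). For ZNF468 the shared part is 53.3%, the largest share of it with ZNF320, and the division of reads between these neighbours was not tested. ZNF350 encodes ZBRK1, a repressor known to bind BRCA1. The largest drops there were ZNF581 (18.98 FPKM with DAC, 40.94 FPKM untreated), ZNF358 (17.89 and 34.24 FPKM), ZNF865 (12.89 and 21.70 FPKM) and ZNF837 (1.28 and 2.46 FPKM), and none of these 4 has a KRAB match.

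ZNF93 and ZNF91, known repressors of L1 and SVA retrotransposons, and ZNF445, which protects imprinted methylation, are low genes singled out for their known roles after their values were seen. ZNF93 measured 1.65 FPKM in DAC-treated and 0.36 FPKM in untreated HCC1937, and 7.07 and 5.80 FPKM in THP-1. ZNF91 measured 1.19 FPKM with DAC and 0.59 FPKM untreated in HCC1937, and 3.29 and 2.96 FPKM in THP-1. ZNF445 measured 1.59 FPKM with DAC and 0.90 FPKM untreated in HCC1937, and 3.92 and 3.30 FPKM in THP-1. All 3 were under 2-fold on the log2(FPKM + 1) scale in both lines.

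Of the 311 low genes placed in GENCODE 29, 163 lie on chromosome 19 (52.4%), against 99 of the 245 ZNF genes at 1 FPKM or more (40.4%). On chromosome 19 the low genes had a median HCC1937 difference of 0.42 with 16 of the 17 calls, and elsewhere 0.11 with 1 call. At 0 in both HCC1937 libraries were 8 of the 163 and 36 of the 148 elsewhere, and these zeros enter the 2 medians. The part of the zeros in the gap was not tested. The ZNF genes at 1 FPKM or more had medians of 0.51 on chromosome 19 and 0.19 elsewhere. A KRAB domain, matched in the translated coding transcripts, was present in 206 of 267 protein-coding low genes (77.2%) and in 125 of 242 at 1 FPKM or more (51.7%). Of the 14 protein-coding genes among the 17, 13 have one.

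KRAB and chromosome 19 go together, so the 4 combinations were separated, with genes at 0 kept in the medians. Among protein-coding low genes the median HCC1937 difference was 0.46 for the 137 with KRAB on chromosome 19 and 0.23 for the 11 without KRAB there. Elsewhere it was 0.22 for the 69 with KRAB and 0.09 for the 50 without. Among ZNF genes at 1 FPKM or more it was 0.61 for the 73 with KRAB on chromosome 19 and 0.11 for the 26 without, and elsewhere 0.21 for 52 with and 0.18 for 91 without. In both level classes the genes with a KRAB match on chromosome 19 had the highest median of the 4. Without KRAB means here that a sequence pattern found no match, and how many domains it missed was not tested. Pseudogenes made up 44 of the low genes, against 3 of the 245, and 23 of them were at 0 in both HCC1937 libraries.

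Split where neighbouring ZNF genes lie over 500 kb apart, 7 stretches hold at least 8 low genes each, 6 of them on chromosome 19 (hg38 positions from GENCODE 29). Their median HCC1937 differences ran from 0.21 in the chromosome 7 stretch from ZNF727 to ZNF92 to 0.86 in the stretch from ZNF175 to ZNF331 (51571298 to 53580269). That value of 0.86 was seen before the stretch was singled out, and no test was made of it. All 22 low genes there were higher with DAC, 18 reached 1 FPKM and 8 were at least 2-fold higher. Of genes other than ZNF below 1 FPKM untreated, 4.32% reached 1 FPKM and 2.06% were at least 2-fold higher. Of the protein-coding ones above 0, these shares were 23.0% and 8.83%. Over all 14058 genes kept, 10.3% were at least 2-fold higher. The summed level of the 22 low genes was 46.29 FPKM with DAC and 13.19 FPKM untreated. The stretch also holds 20 ZNF genes at 1 FPKM or more, which were all higher with DAC as deposited (19 of 20 with either scaling tried), 8 of them at least 2-fold, with a median of 0.96. Those 8 calls became 5 with median-of-ratios and 3 with upper-quartile scaling. The 22 low genes stayed higher with both scalings, with medians of 0.75 and 0.64 and with 7 and 6 calls.

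Genes of this stretch ranged from ZNF702P, at a difference of 1.73, to ZNF175, which measured 0.45 FPKM with DAC and 0.30 FPKM untreated, a difference of 0.16. ZNF600, ZNF611, ZNF649, ZNF701, ZNF534, ZNF577 and ZNF813 complete the 8 calls. Of 74 genes other than ZNF in the stretch, 12 were at 1 FPKM or more in a library. Of these 12, 4 were at least 2-fold higher (beside 10.3% of all 14058 genes kept), and the median difference of the 12 was 0.83. The 141 low genes elsewhere on chromosome 19 had a median of 0.39 with 8 calls. In THP-1, the 6 low genes of the stretch at 1 FPKM or more had a median difference of 0.13 and none was called. Many of these genes are close copies, so the division of reads among them is uncertain.

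**Figure D3:**
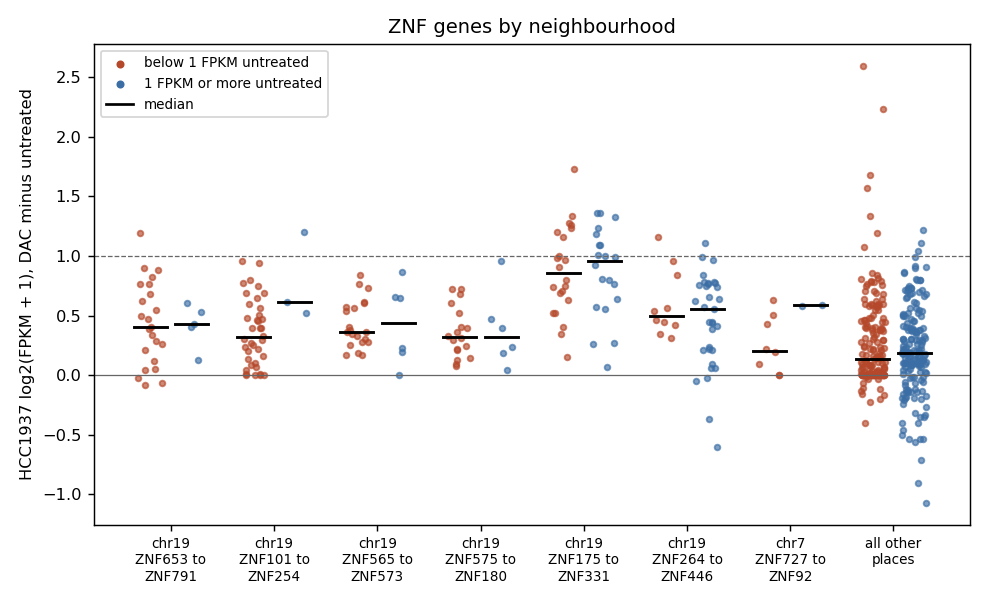
HCC1937 difference of log2(FPKM + 1), DAC minus untreated, of each ZNF gene by neighbourhood, for genes below 1 FPKM untreated (red, left) and at 1 FPKM or more untreated (blue, right). Bars are medians, which reach 0.86 and 0.96 between ZNF175 and ZNF331, and the dashed line marks 2-fold.

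The other chromosome 19 stretches lay closer to one another. From ZNF653 to ZNF791 (11483427 to 12640098) the 23 low genes had a median of 0.40, 8 reached 1 FPKM with DAC, and ZNF433 was the single call. From ZNF101 to ZNF254 (19668796 to 24129961), a stretch that includes ZNF91 and ZNF93, the 38 low genes had a median of 0.32, 7 reached 1 FPKM and none was called. From ZNF565 to ZNF573 the 21 low genes had a median of 0.37 and 8 reached 1 FPKM, and from ZNF575 to ZNF180 the 18 low genes had a median of 0.32 and 4 reached it, with no call in either. From ZNF264 to ZNF446, where 33 of 43 ZNF genes were at 1 FPKM or more, the 10 low genes had a median of 0.50, 9 reached 1 FPKM and ZNF154 was the single call. The share that reached 1 FPKM was 90% there and 81.8% between ZNF175 and ZNF331. It was 4.32% of genes other than ZNF below 1 FPKM untreated and 23.0% of the protein-coding ones above 0. Starting levels differed between stretches. The summed untreated level was 6.63 FPKM over the 10 low genes from ZNF264 to ZNF446 and 7.88 FPKM over the 38 from ZNF101 to ZNF254. Nothing is read from these shares. ZNF114, ZNF542P, ZNF560, ZNF812P, ZNF559 and ZNF582 lie on chromosome 19 outside these stretches.

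RefSeq promoter windows of 300 bases, from 250 before to 50 after the start, were matched by symbol for 222 of the 313 low genes and 204 of the 245 others. The low genes held a median of 19 CpG per window, with quartiles of 14 and 25, against 23.5 in the ZNF genes at 1 FPKM or more. By CpG number, the share of low genes that reached 1 FPKM with DAC was 11.1% of 9 genes with 0 to 5 CpG, 31.8% of 66 with 6 to 15, 38.0% of 92 with 16 to 25 and 60% of 55 with 26 or more. In these 4 classes 4, 3, 3 and 3 genes were at 0 in both HCC1937 libraries. Of genes other than ZNF below 1 FPKM untreated, 4.32% reached 1 FPKM. Starting levels were not compared between the classes, so nothing is read from the shares. The median differences were 0.03, 0.39, 0.38 and 0.41 in the same order. The difference itself hardly followed CpG number, with a Spearman rho of 0.10 over 222 genes that share the same 2 libraries. The hexamer CGGAAG, the core of ETS factor motifs, occurred on either strand in 51.8% of low genes, 50.5% of ZNF genes at 1 FPKM or more and 19.9% of all 27305 genes with a window. TGACGTC (CREB type) was in 5.41%, 5.88% and 3.63%, GCATGCG (NRF1 type) in 7.66%, 6.86% and 4.14%, and TCTCGCG (ZBTB33 type) in 4.95%, 3.92% and 3.51% of these 3 sets. Over the 18094 genes that have both a window and a deposited value, the 4 shares were 23.7%, 4.33%, 4.87% and 4.51% in the same order. For TCTCGCG that share lay between those of the 2 ZNF sets. A match is a description of letters and not of a bound site.

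THP-1 values were not used to choose the genes. They exist for 279 of the 313, and they seem to rest on a different gene set, so levels of the lines can be set side by side as an approximation only. In THP-1, 123 of the 279 (44.1%) stood at 1 FPKM or more with DAC and 114 (40.9%) untreated, against 218 (89.3%) with DAC and 215 (88.1%) untreated of 244 ZNF genes at 1 FPKM or more in untreated HCC1937. Median levels were 0.77 FPKM with DAC and 0.61 FPKM untreated for the low genes, and 4.63 FPKM with DAC and 4.22 FPKM untreated for the others. At 0 in THP-1 were 46 low genes with DAC and 53 untreated, 41 of them in both. Genes low in 1 line were thus lower in the other line as a set, while more than 100 of them stood at 1 FPKM or more there.

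Several low genes were abundant in THP-1. ZNF684 measured 60.71 FPKM in DAC-treated and 49.67 FPKM in untreated THP-1, against 0.52 and 0.69 FPKM in HCC1937. ZNF521, a regulator of haematopoietic progenitors, measured 14.70 FPKM with DAC and 13.21 FPKM untreated in THP-1, and 0 and 0.02 FPKM in HCC1937. ZNF789 measured 22.54 FPKM with DAC and 17.22 FPKM untreated in THP-1, and ZNF394, whose exons overlap those of ZNF789, 14.12 and 15.29 FPKM. In HCC1937 ZNF789 had 1.61 FPKM with DAC and 0.73 FPKM untreated, and ZNF394 1.63 and 0.93 FPKM, all below the values in the THP-1 columns. The size of such a gap between lines is approximate, since the gene sets seem to differ.

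Exon bases shared with other genes touch 2 of the most abundant ones. ZNF593, a nucleolar protein gene, measured 37.56 FPKM with DAC and 35.96 FPKM untreated in THP-1 and 0 in both HCC1937 libraries. Of its exon bases, 100% are shared with other genes, most of all with AL391650.1 on the opposite strand. ZNF410, an activator of CHD4, measured 16.14 FPKM with DAC and 16.29 FPKM untreated in THP-1 and 0.56 and 0.48 FPKM in HCC1937. Of its exon bases, 45.9% are shared with other genes. Strand use in the counting was not given, and the part of such overlaps in the low HCC1937 values was not tested. At least 10% of the exon bases were shared in 56 of the 313 genes. Among these are 4 of those called in HCC1937, ZNF542P (23.5%), ZNF701 (18.6%), ZNF433 (17.6%) and ZNF559 (12.9%).

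**Figure D4:**
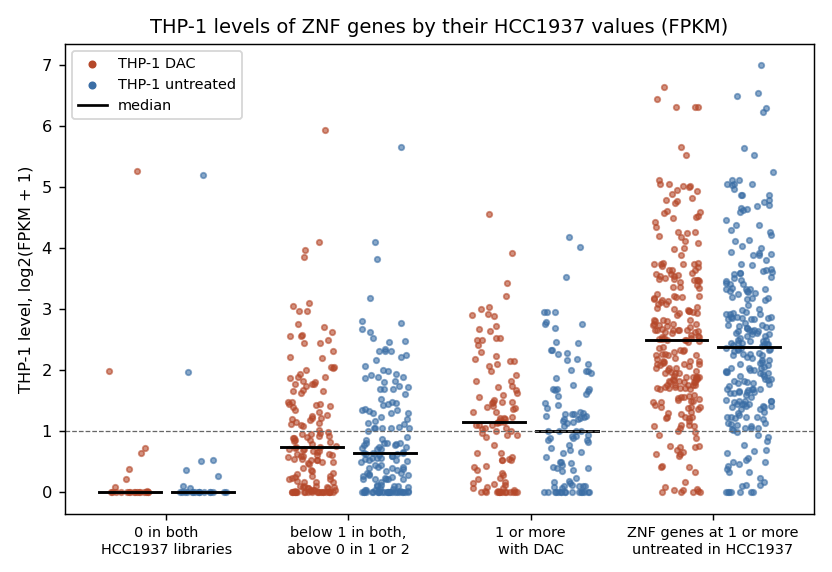
THP-1 level, log2(FPKM + 1), of each ZNF gene in the DAC-treated (red, left) and untreated (blue, right) library, by its class in HCC1937, with medians as bars and 1 FPKM dashed. Genes at 0 in both HCC1937 libraries have a median of 0, and the low genes that reached 1 FPKM with DAC in HCC1937 have medians of 1.22 FPKM with DAC and 1.01 FPKM untreated.

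The HCC1937 classes of low genes also differed in THP-1 level. They differed in starting level too, since those that reached 1 FPKM had a median of 0.65 FPKM untreated, against 0.27 FPKM over all 313. Over 279 genes, the untreated THP-1 level had a Spearman rho of 0.42 with the untreated HCC1937 level and 0.30 with the DAC level. The classes are therefore not read as a response to DAC. Of the 105 that reached 1 FPKM with DAC in HCC1937, 104 have THP-1 values, and 62 (59.6%) with DAC and 54 (51.9%) untreated stood at 1 FPKM or more. Of the 208 that stayed below 1 FPKM in both HCC1937 libraries, 175 have values, and 61 with DAC and 60 untreated did. Of the 44 at 0 in both, 24 have values, 14 of these were at 0 in both THP-1 libraries too, and 2 reached 1 FPKM, ZNF593 and ZNF804A. ZNF804A measured 2.97 FPKM with DAC and 2.93 FPKM untreated, and was named after its value was seen. The near-identical ZNF705A, ZNF705B, ZNF705D and ZNF705G, likewise named afterwards, were listed at 0 in all 4 libraries, where reads that match several copies may not have been counted.

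DAC differences in THP-1 were small. Of the low genes, 127 stood at 1 FPKM or more in at least 1 THP-1 library. Among them 101 were higher and 26 lower with DAC, with a median difference of 0.12, against 143 higher and 73 lower with a median of 0.07 for 218 ZNF genes at 1 FPKM or more in untreated HCC1937. All 12075 genes kept in THP-1 had a median of 0.07. With upper-quartile scaling 95 low genes were higher and 32 lower, and 123 of the others higher and 95 lower. A single low gene was at least 2-fold higher (0.787%, beside 1.14% of all genes kept) and none was at least 2-fold lower (beside 0.364%).

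**Figure D5:**
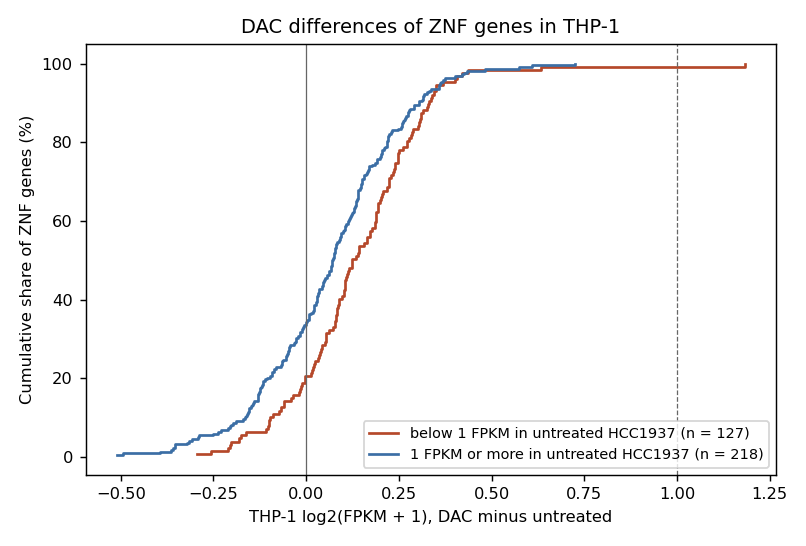
Cumulative share (%) of ZNF genes by their THP-1 difference of log2(FPKM + 1), DAC minus untreated, for 127 genes below 1 FPKM in untreated HCC1937 (red) and 218 at 1 FPKM or more (blue). The red curve lies to the right over most of its course, with medians of 0.12 and 0.07, and only ZNF117 passes the dashed 2-fold line.

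The gene called in THP-1 was ZNF117 (chromosome 7, 64971776 to 65006684), with 13.54 FPKM in DAC-treated and 5.4 FPKM in untreated cells, a difference of 1.18 and a ratio of 2.51 (counting interval 2.34 to 2.69). In HCC1937 it measured 0.20 FPKM with DAC and 0.05 FPKM untreated. ZNF117 lies on the same strand as ERV3-1, an envelope gene of an endogenous retrovirus. Of the exon bases of ZNF117, 3.48% are shared with other genes, most of all with ERV3-1. ERV3-1 measured 21.97 FPKM with DAC and 8.66 FPKM untreated in THP-1, a difference of 1.25, and 1.17 and 1.11 FPKM in HCC1937. The pair thus differed by similar amounts in THP-1, and how the shared transcription unit divided the reads was not tested.

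The next rises in THP-1 were those of ZNF852 (3.02 FPKM with DAC, 1.59 FPKM untreated), ZNF519 (1.37 and 0.75 FPKM), ZNF337 (4.65 and 3.22 FPKM), ZNF431 (5.74 and 4.08 FPKM) and ZNF846 (2.08 and 1.33 FPKM). Their counting intervals lay above 1, though none was 2-fold. Of the exon bases of ZNF337, 73.8% are shared with other genes, most of all with its antisense gene. The largest drops were those of ZNF556 (2.15 FPKM with DAC, 2.86 FPKM untreated), ZNF383 (2.10 and 2.70 FPKM), ZNF469 (6.84 and 8.08 FPKM), ZNF136 (1.80 and 2.23 FPKM), ZNF554 (0.80 and 1.07 FPKM) and ZNF224 (0.94 and 1.20 FPKM). ZNF469 is the gene mutated in brittle cornea syndrome and ZNF224 a repressor of aldolase A. The interval of the ratio lay below 1 for 5 of these 6 and included 1 for ZNF554.

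None of the 17 genes called in HCC1937 was called in THP-1, where 1.14% of all genes kept were called higher. Of the 16 with THP-1 values, 7 with DAC and 6 untreated stood at 1 FPKM or more, and the highest value was 2.55 FPKM, in ZNF559 with DAC, against 2.05 FPKM untreated. ZNF600 had 1.80 FPKM with DAC and 1.70 FPKM untreated, and ZNF611 1.85 and 1.75 FPKM. The counting interval of the THP-1 ratio lay above 1 for 4 of the 16 and below 1 for none. These 4 were ZNF559 (ratio 1.24, interval 1.06 to 1.47), ZNF577 (1.70, 1.29 to 2.26), ZNF649 (1.41, 1.03 to 1.93) and ZNF154 (2.57, 1.04 to 6.49). Among all 238 low genes with THP-1 reads the interval lay above 1 for 74 and below 1 for 6. Among the 240 ZNF genes at 1 FPKM or more in untreated HCC1937 it lay above 1 for 71 and below 1 for 30. Nothing is read from the 4. Dose and time differed between the lines, so the difference cannot be assigned to the line. Across the 127 low genes the HCC1937 and THP-1 differences had a Spearman rho of 0.14, and across the 218 others 0.45, as a description over genes that share the same 4 libraries.

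Partners of KRAB proteins and genes of heterochromatin and DNA methylation were read from a list of 26. In HCC1937, 2 were at least 2-fold higher with DAC and none lower (beside 10.3% and 1.44% of all genes kept), with a median difference of 0.40. As deposited, 20 of the 26 had a higher and 6 a lower value with DAC (19 and 7 with upper-quartile scaling). The 2 called were the de novo methyltransferase DNMT3B (14.36 FPKM with DAC, 5.23 FPKM untreated) and the imprint-protecting KRAB protein gene ZFP57 (11.65 and 4.51 FPKM). TRIM28, the corepressor itself and 1 of the 6, measured 171.80 FPKM with DAC and 197.25 FPKM untreated in HCC1937 and 268.05 and 277.42 FPKM in THP-1. SETDB1 measured 3.31 FPKM with DAC and 2.40 FPKM untreated in HCC1937 and 24.84 and 23.31 FPKM in THP-1.

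Below 2-fold in HCC1937 were TRIM33 (10.14 FPKM with DAC, 4.58 FPKM untreated), the chromatin remodeller HELLS (3.81 and 1.57 FPKM), the histone methyltransferase SUV39H2 (6.61 and 3.15 FPKM) and UHRF1, which directs DNMT1 to replicating DNA (31.59 and 16.95 FPKM). The other 5 with a lower value were the H3K9 methyltransferases SUV39H1 (2.71 FPKM with DAC, 4.05 FPKM untreated), EHMT2 (10.04 and 14.22 FPKM) and EHMT1 (4.10 and 4.57 FPKM), the heterochromatin protein CBX1 (43.07 and 51.16 FPKM) and the SETDB1 partner ATF7IP (7.23 and 8.11 FPKM). DNMT1, the maintenance methyltransferase that DAC traps, measured 33.14 FPKM with DAC and 23.65 FPKM untreated. In THP-1 none of the 23 listed genes kept was 2-fold different, and their median difference was 0.08, with 15 higher and 8 lower as deposited and 12 and 11 with either scaling. CHD4, the known target of ZNF410, measured 2.01 FPKM with DAC and 1.47 FPKM untreated in HCC1937 and 57.56 and 58.23 FPKM in THP-1. In CHD4 too, 53.5% of the exon bases are shared with other genes.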

How the data were processed

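RNA was sequenced in 4 libraries, 1 a group, and the authors deposited 1 table of values per gene. The tools named per the submitters' processing notes are STAR, HTSeq, cutadapt and FastQC, with the build hg38. Their versions, the annotation and strand use are not given in the sources used here. The deposited values carry no stated unit and were read as FPKM made by the authors, judging from the values: they have 2 decimals, column sums differ, and for genes of 50 to 250 bp the product of value and length is a whole multiple of 1 step, within 0.1, for 92.4% to 94.8% of genes. That step gave the counted reads and exact 95% counting intervals, with a floor of 3 reads. Of 60612 lines, 1079 of 76 repeated symbols were left out and 37039 hold no THP-1 value (#N/A). The deposited THP-1 columns were read as FPKM too, but seem to rest on a different gene set. Differences are therefore taken within a line, and levels of the lines set side by side are approximate.

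Differences are DAC minus untreated in log2(FPKM + 1), unscaled, and a call is at least 2-fold. THP-1 genes needed 1 FPKM or more in 1 library. Positions, exon overlap and KRAB matches came from GENCODE 29, and promoters from RefSeq (GRCh38.p14). The members, the gene lists and the neighbourhoods were chosen with earlier results of these data known. Named genes were the 12 largest HCC1937 rises among genes of 1 FPKM or more with DAC, extended to all 17 calls, the 5 largest drops, the 6 largest THP-1 rises, drops and levels, 4 genes on each side of 1 FPKM, 4 ZNF genes of 1 FPKM or more in each direction, and listed pathway genes. Others are said to be named after their values were seen. The software was scipy 1.17.1, numpy 2.4.6, matplotlib 3.10.9 and pandas 2.3.3 under Python 3.11.15, and the scripts were tested on simulated data. Alternatives covered scaling, pseudocount, fold, filters, the 1 FPKM threshold, and exon sharing. The scaling of the neighbourhoods, their gap and exon sharing were added after the data were seen.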

Additional observations from a re-analysis of the deposited data

Results flagged for a closer look

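ZNF433, a KRAB gene on chromosome 19, had a higher value with DAC in HCC1937 and a lower one in THP-1. It measured 3.45 FPKM with DAC and 0.95 FPKM untreated in HCC1937, and 1.02 FPKM with DAC and 1.26 FPKM untreated in THP-1. Its log2(FPKM + 1) difference in HCC1937 exceeded that in THP-1 by 1.35. With 1 library a group this difference between lines was not tested, and the counting interval of the THP-1 ratio, 0.57 to 1.16, includes 1. Of its exon bases, 17.6% are shared with other genes, most of all with ZNF433-AS1.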

How the results depend on the processing

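No paired analysis was possible because each group holds 1 library, and for the same reason no replicate could be left out. The 17 low genes at least 2-fold higher in HCC1937 became 11 with upper-quartile scaling, all of them among the 17, 128 with a pseudocount of 0.1 (and 2 lower), 52 with 0.5, 4 at 3-fold, 3 at 5 FPKM or more and 7 with a threshold of 0.5 FPKM. Their median difference, 0.30, was 0.24 with median-of-ratios and 0.18 with upper-quartile scaling, 0.80 and 0.45 with pseudocounts of 0.1 and 0.5, 0.64 at 1 FPKM or more with DAC, 2.23 at 5 FPKM or more, 0.19 and 0.33 with thresholds of 0.5 and 2 FPKM, 0.38 above 0 and 0.30 without shared exons. The filters at 1 and 5 FPKM can be passed only through the treated library, where these genes are high. The larger medians of 0.64 and 2.23, the second over 3 genes, thus follow from the filter, and nothing is read from them. The median of all HCC1937 genes kept, 0.19 as deposited, was 0.07 with median-of-ratios and -0.06 with upper-quartile scaling. The share of higher among all calls, 87.8% as deposited (1452 higher, 202 lower), became 81.0% (1182 and 277) and 67.5% (958 and 461).

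In THP-1 the median of 0.12 became 0.0749 and 0.0925 with the 2 scalings, 0.18 and 0.15 with the pseudocounts, 0.0525 with no filter, 0.20 at 5 FPKM or more, and 0.13 and 0.14 with thresholds of 0.5 and 2 FPKM, while the single call was lost at 3-fold (0). Low genes at 1 FPKM or more in THP-1, 123 with DAC and 114 untreated, were 73 and 67 at 2 FPKM, 61 and 58 with a threshold of 0.5 FPKM, and 192 and 181 with 2 FPKM. The ZNF175 to ZNF331 median of 0.86 was 0.91 at a gap of 200 kb, 0.75 and 0.64 with the 2 scalings, and 0.94 without shared exons, alternatives chosen after seeing the data. The pathway list gave 1 higher call with upper-quartile scaling, HCC1937 medians of 0.28 and 0.15 and THP-1 medians of 0.0142 and 0.0316 with the 2 scalings. No value with a call reversed. The ZNF genes at 1 FPKM or more gave 7 higher and 2 lower calls with median-of-ratios scaling, and 3 and 2 with upper-quartile scaling. Depth limits most the low values of short genes, and without replicates the spread between cultures is unknown.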
